A study of Mus musculus with 6 samples.

Results

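The cholesterol synthesis and uptake genes described here are Hmgcs1, Idi1, Fdps, Sqle, Cyp51, Insig1 and Npc1l1. They are 7 of the 19505 genes named on the array. They were chosen by name for their place in cholesterol metabolism, with earlier results of these data known. Each is measured by 1 probe set.

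The data are 6 Affymetrix arrays of RNA from C57BL/6J mice, labelled as liver, with 3 arrays in a group called L-Exo and 3 in a group called H-Exo. All recipient mice were fed a high-fat diet (HFD) and received exosomes by mouth every day for 14 days, at 2000000000 exosomes per dose. L-Exo mice received exosomes from the feces of mice kept on regular chow, and H-Exo mice received exosomes from the feces of obese mice kept on HFD. The comparison asks whether the origin of the exosomes changed expression of these genes in recipients that shared diet, dose and duration. The methods describe male C57BL/6 mice and exosomes from pooled fecal pellets that carried CD63, a protein of exosome membranes, and A33, a protein of the intestinal epithelium. The groups hold no mice without exosomes. Whether each array stands for its own mouse is not stated, and the tests therefore speak only of the variation among the 6 arrays, which may be technical.

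All values are log2 intensities from robust multiarray averaging (RMA), in which 1 unit is a factor of 2. Array medians lay between 5.52 and 5.56. A signal is called above the control level where it exceeded the 95th percentile of the 5222 negative controls on the same array, a level between 7.97 and 8.41. The share of probe sets above it ran from 22.3% to 26.7%. The mean correlation with the other arrays was 0.951 for L-Exo 1, 0.963 for H-Exo 1 and at least 0.971 for the other 4. The arrays did not show the profile of the labelled tissue. Of 12 hepatocyte markers, 0 were above the control level on all 6 arrays and 11 on none, and albumin (Alb) was above it on the 3 L-Exo arrays only. Of 12 markers of the intestinal epithelium, 10 were above it on all 6 arrays and Lct on none, against 19.1% of all named genes. Levels of the 7 genes are therefore not described as liver expression. In tissue samples, fewer cells of a type and less RNA per cell cannot be told apart.

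Cells obtain cholesterol by making it and by taking it up. In synthesis, acetyl-CoA passes through the mevalonate pathway to isoprenoid units, squalene, lanosterol and cholesterol. The transcription factor SREBP-2, encoded by Srebf2, raises the genes of this pathway when sterols in the endoplasmic reticulum are low, and INSIG proteins hold its escort SCAP in place when sterols are high. In the small intestine, absorptive cells take up cholesterol from the lumen through NPC1L1, the target of ezetimibe, and return sterols through the transporter formed by ABCG5 and ABCG8.

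Promoters of 3 of the genes are shown because they stand for the roles compared below, an enzyme, a regulator and an uptake protein. Each is the 250 bases before the annotated start of the RefSeq gene on GRCm38.p6, written 5′ to 3′ in the direction of transcription. Capitals mark matches on either strand to TCACNCCAC, the core of the sterol regulatory element that SREBP proteins bind, to CCAAT, which NF-Y binds, and to GGGCGG, which Sp1 binds. They lie at chr13:119690101-119690350 on the plus strand (Hmgcs1), chr5:28071162-28071411 on the plus strand (Insig1) and chr11:6230246-6230495 on the minus strand (Npc1l1).
Hmgcs1: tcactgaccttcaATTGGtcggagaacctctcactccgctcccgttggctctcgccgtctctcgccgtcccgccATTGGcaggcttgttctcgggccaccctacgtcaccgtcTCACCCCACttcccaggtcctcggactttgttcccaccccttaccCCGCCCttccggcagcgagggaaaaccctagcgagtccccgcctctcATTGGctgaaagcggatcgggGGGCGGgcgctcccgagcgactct
Insig1: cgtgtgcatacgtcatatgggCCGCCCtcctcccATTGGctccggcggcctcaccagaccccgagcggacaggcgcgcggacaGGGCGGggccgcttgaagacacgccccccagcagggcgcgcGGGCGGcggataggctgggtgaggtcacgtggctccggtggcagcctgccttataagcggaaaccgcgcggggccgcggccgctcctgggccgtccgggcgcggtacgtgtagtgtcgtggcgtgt
Npc1l1: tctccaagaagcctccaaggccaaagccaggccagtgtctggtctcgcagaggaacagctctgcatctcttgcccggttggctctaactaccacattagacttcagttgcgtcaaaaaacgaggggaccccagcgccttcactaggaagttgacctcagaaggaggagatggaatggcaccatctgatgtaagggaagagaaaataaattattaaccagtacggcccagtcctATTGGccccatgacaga

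Promoters were available for 5 of the 7 genes, Hmgcs1, Insig1, Idi1, Cyp51 and Npc1l1. Over the 250 bases before and 50 bases after the start, TCACNCCAC occurred in 1 of the 5, Hmgcs1, where it read TCACCCCAC, and in 1.24% of 32851 promoters of the same length. CCAAT occurred in 5 of 5 and in 37.4% of all promoters. GGGCGG occurred in 4 of 5, all but Npc1l1, and in 35.7% of all promoters. No matches of different motifs overlapped in these promoters. A match is a description of the letters and not evidence of binding.

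None of the 7 genes passed the test for a difference between H-Exo and L-Exo. The adjusted p was at least 0.988 for each by limma, with Benjamini-Hochberg adjustment over 22206 probe sets. The share of all probe sets called at an adjusted p under 0.05 was 0.0%. At an unadjusted p under 0.05, 0 of the 7 genes were called, against 4.06% of all probe sets, with 0 higher in H-Exo against 2.32% and 0 lower against 1.74%. H-Exo and L-Exo arrays overlapped for all 7, while they did not overlap for 9.61% of all probe sets. The mean was lower in H-Exo for 5 genes and higher for 2, and 51.1% of all probe sets had a lower mean in H-Exo. The median difference was -0.06 over the 7 genes and -0.01 over all probe sets. Of the 7, 6 were above the control level on all 6 arrays, Fdps was above it on 4, and 0 were saturated. An exact permutation test of 3 arrays against 3 cannot give a two-sided p below 0.1.

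Hmgcs1, on chromosome 13, encodes the cytosolic synthase that makes HMG-CoA, the substrate from which mevalonate is formed. Its log2 value was 15.47, 16.58 and 16.30 on L-Exo 1, 2 and 3 and 16.28, 16.65 and 14.87 on H-Exo 1, 2 and 3. The lowest and the highest value both fell in the H-Exo group, so its range enclosed that of L-Exo. L-Exo averaged 16.12 ± 0.58 and H-Exo 15.93 ± 0.94 (SD, n = 3 each). H-Exo minus L-Exo was -0.18 on this scale (standard error 0.50, 95% interval -1.30 to 0.94, exact permutation p = 0.8).

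Idi1, also on chromosome 13, encodes the isomerase that interconverts the 5-carbon isoprenoid units. Its values were 9.95, 10.31 and 10.52 in L-Exo and 9.19, 10.71 and 9.30 in H-Exo, in the order of the replicate numbers. H-Exo 1 and H-Exo 3 were the lowest of the 6 arrays and H-Exo 2 was the highest. The difference was -0.53 (standard error 0.43, 95% interval -1.50 to 0.44, exact permutation p = 0.4).

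Fdps, on chromosome 3, encodes farnesyl diphosphate synthase, which joins these units into the 15-carbon precursor of squalene and of prenyl groups. Its values were 7.69, 8.75 and 8.61 in L-Exo and 8.75, 8.85 and 7.32 in H-Exo. On L-Exo 1 and H-Exo 3 the signal was not above the control level, and these were the lowest arrays of their groups. The difference was -0.04 (standard error 0.47, 95% interval -1.11 to 1.02, exact permutation p = 0.9).

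Sqle, on chromosome 15, encodes squalene epoxidase, the enzyme that commits squalene to the sterol branch. Its values were 10.39, 11.10 and 10.97 in L-Exo and 10.72, 11.42 and 10.16 in H-Exo. It varied least of the 7, with a range of 1.26 over the 6 arrays. The difference was -0.06 (standard error 0.39, 95% interval -0.93 to 0.81, exact permutation p = 1.0).

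Cyp51, on chromosome 5, encodes the demethylase that acts on lanosterol. Its values were 12.87, 13.56 and 12.92 in L-Exo and 12.26, 12.90 and 11.95 in H-Exo. H-Exo 2 was above L-Exo 1 by a small margin and below the other L-Exo arrays, so the groups overlapped by this 1 pair of arrays. The difference was -0.75 (standard error 0.36, 95% interval -1.55 to 0.05), with a limma unadjusted p of 0.0641 and an exact permutation p of 0.2, and it was the lowest unadjusted p of the 7. Among the 7, Cyp51 and Idi1 kept a lower mean in H-Exo when any 1 array was left out, at -1.01 to -0.53 and -1.02 to -0.26.

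Insig1, on chromosome 5, encodes a sterol-dependent anchor of SCAP and is itself a target of SREBP. Its values were 9.09, 11.37 and 10.34 in L-Exo and 11.47, 11.58 and 10.08 in H-Exo. L-Exo 1 was well below the other 5 arrays. The difference was 0.78 (standard error 0.60, 95% interval -0.57 to 2.13, exact permutation p = 0.5). With 1 array left out it ran from 0.19 without L-Exo 1 to 1.33 without L-Exo 2, and it was 1.26 without H-Exo 3.

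Npc1l1, on chromosome 11, was the uptake gene of the set. Its values were 12.15, 13.75 and 14.79 in L-Exo and 14.10, 13.91 and 15.29 in H-Exo. It varied most of the 7, with a range of 3.14 over the 6 arrays, and its lowest array was L-Exo 1 and its highest H-Exo 3. The difference was 0.87 (standard error 0.64, 95% interval -0.56 to 2.30, exact permutation p = 0.4). With 1 array left out it ran from 0.17 without L-Exo 1 to 1.48 without L-Exo 3, and it was 0.45 without H-Exo 3.

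**Figure D1:**
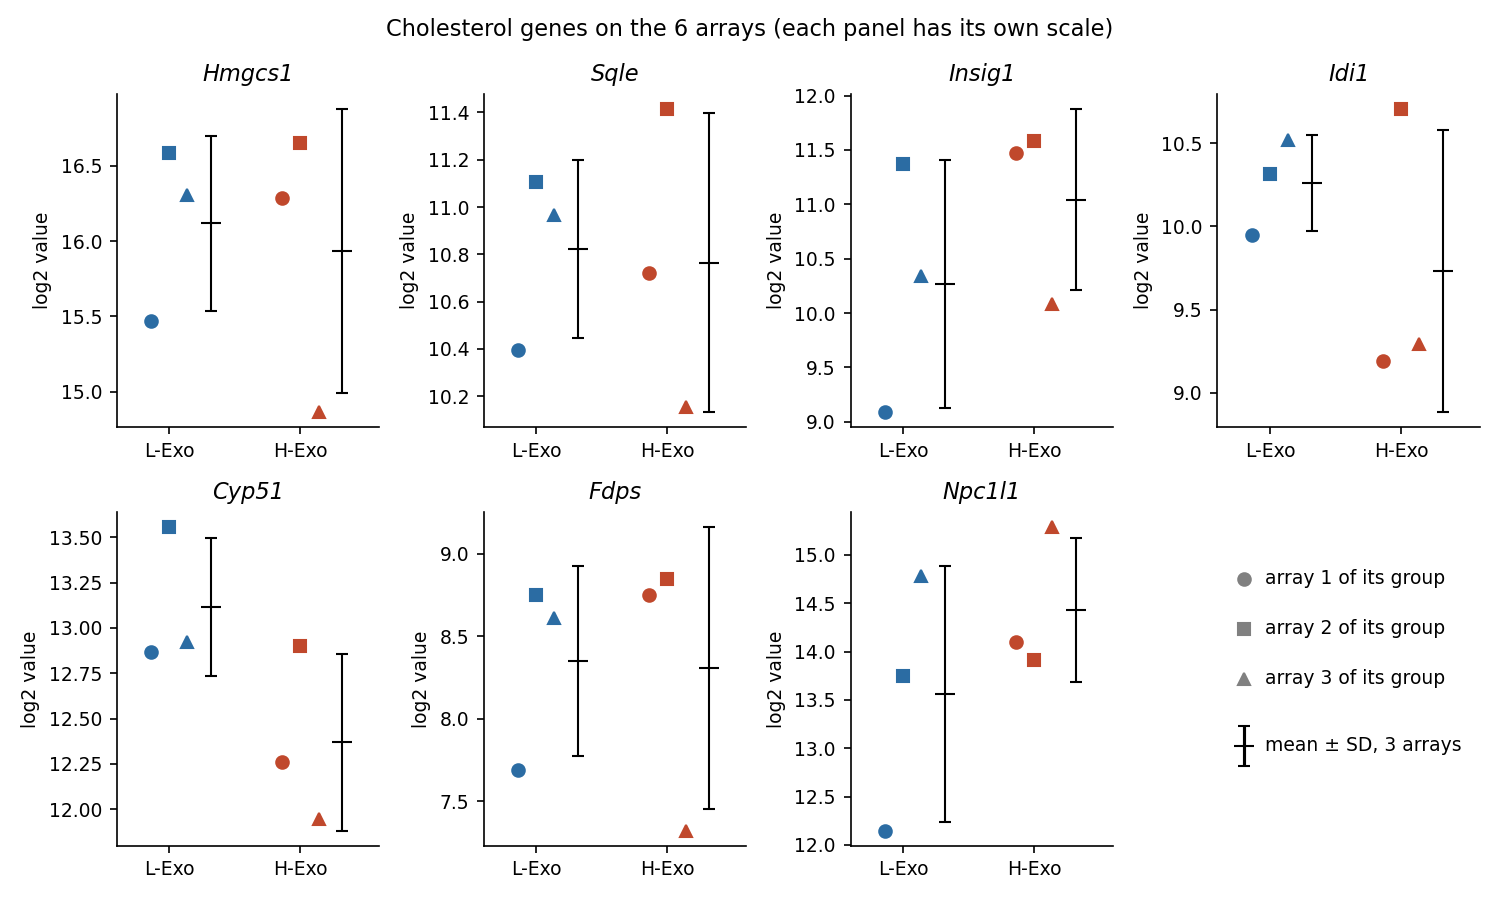
Log2 RMA value (vertical axis) of each of the 7 genes on each of the 6 arrays, with the L-Exo and H-Exo means. The groups overlap in all 7 panels, and H-Exo 3 is the lowest array for Hmgcs1, Sqle, Cyp51 and Fdps and the highest for Npc1l1.

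**Figure D2:**
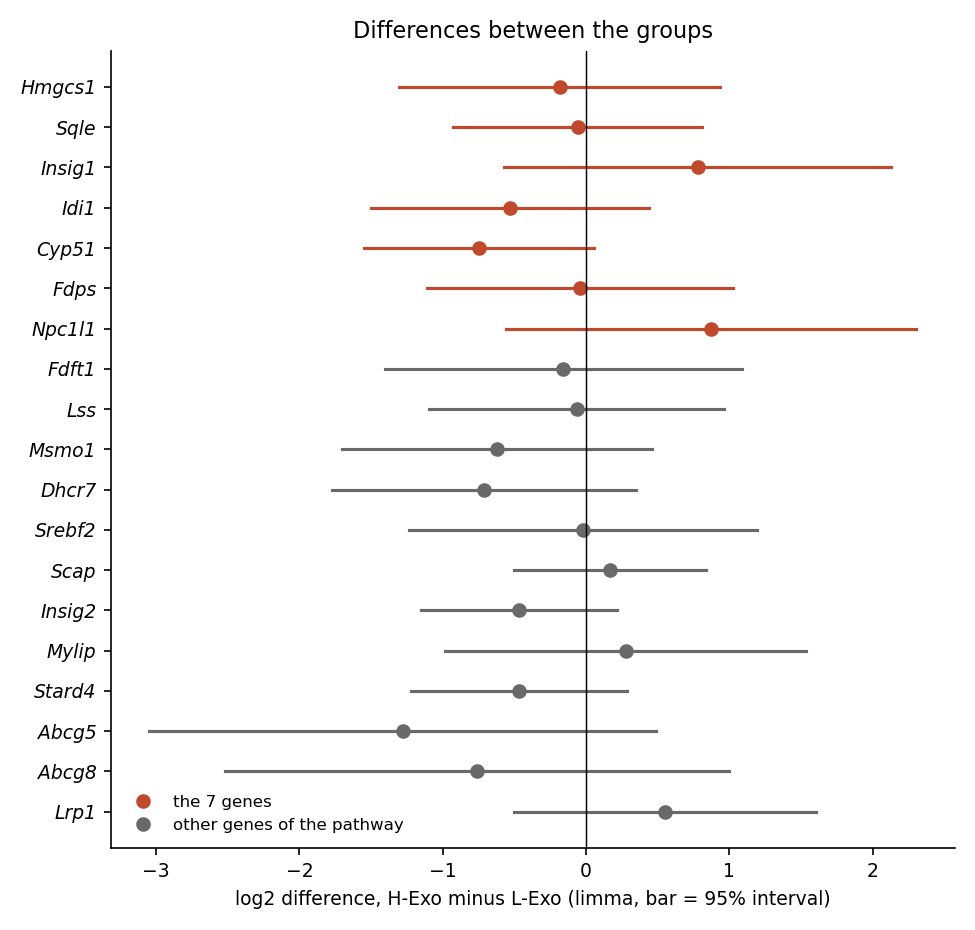
Difference H-Exo minus L-Exo on the log2 scale for the 7 genes, with 95% intervals from limma. All 7 intervals include 0, from -0.75 for Cyp51 to 0.87 for Npc1l1.

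The 5 enzymes and Insig1 shared much of an order of the arrays that was not the order of the groups. H-Exo 2 was the highest array for 5 of these 6, Hmgcs1, Sqle, Insig1, Idi1 and Fdps, and L-Exo 2 was the highest for Cyp51. H-Exo 3 was the lowest for 4 and the second lowest for Insig1 and Idi1. L-Exo 1 was the lowest L-Exo array for all 6, and for Npc1l1 as well, but for Idi1 and Cyp51 H-Exo 1 was lower still. Hmgcs1 and Sqle ranked the 6 arrays identically.

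The mean rank over these 6 genes, from 1 for the lowest array, was 2.17, 4.83 and 4.0 on L-Exo 1, 2 and 3 and 3.0, 5.67 and 1.33 on H-Exo 1, 2 and 3. With each gene centred on its own mean, their mean was -0.51, 0.52 and 0.19 in L-Exo and 0.02, 0.59 and -0.81 in H-Exo. Each group thus held 1 low and 1 high array. On this mean H-Exo 3 was the lowest and H-Exo 2 the highest of the 6 arrays, so the H-Exo range enclosed that of L-Exo.

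All 15 pairs among the 6 genes correlated positively over the 6 arrays, with a median Pearson r of 0.73, from 0.17 for Insig1 and Idi1 to 0.98 for Hmgcs1 and Fdps. The plan named all 7 genes and not the 6 alone, and the 7 were chosen with earlier results of these data known. Over all 7 genes, 17 of 21 pairs were positive and the median r was 0.62, and the 4 negative pairs all held Npc1l1. Pairs among all 3642 named genes that were above the control level on all arrays and not saturated had a median r of 0.03 and were positive in 52.0%. These correlations are descriptions over 6 arrays that differed in cell type markers and in mean correlation with the other arrays. The part of either in them was not tested. Npc1l1 did not share the order, and its r with the 6 others ran from -0.45 for Cyp51 to 0.32 for Insig1, with a median of -0.07. Without L-Exo 1 and H-Exo 3, 2 arrays chosen after seeing their values, the median r over the 7 genes fell to 0.26.

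**Figure D3:**
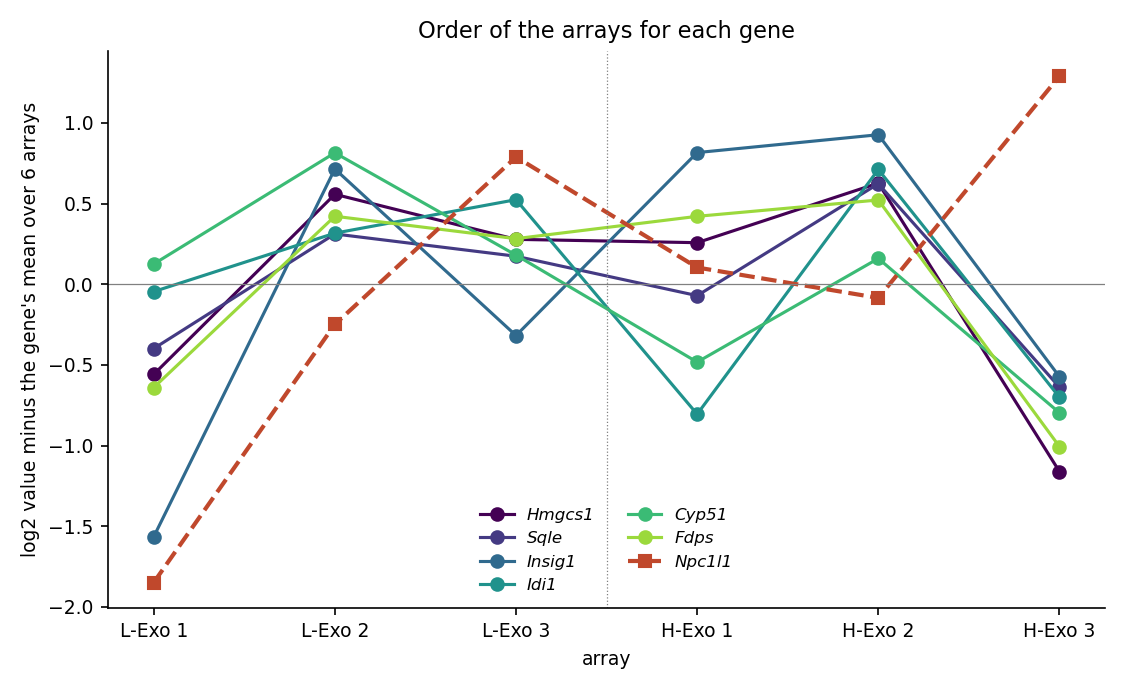
Log2 value of each gene centred on its own mean over the 6 arrays, by array. H-Exo 3 is the lowest or second lowest array for the 5 enzymes and Insig1 and H-Exo 2 the highest for all of them but Cyp51, while Npc1l1 is lowest on L-Exo 1 and highest on H-Exo 3, and lines only join the points of a gene.

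Cell type markers also differed between the arrays. Of the 12 epithelium markers, 5 were saturated on at least 1 array, and 5 others, Vil1, Gpa33, Cdx2, Alpi and Slc5a1, were above the control level on all 6 arrays and saturated on none. The mean log2 of these 5 was 14.01, 15.84 and 16.13 in L-Exo and 15.20, 15.49 and 15.59 in H-Exo, lowest on L-Exo 1. Of 6 smooth muscle markers, all above the control level on all 6 arrays, 4 were saturated on none. Their mean was 17.06, 15.68 and 14.87 in L-Exo and 17.13, 15.42 and 14.61 in H-Exo, highest on L-Exo 1 and H-Exo 1 and lowest on H-Exo 3. Over the 6 arrays, r of the mean of the 6 genes was 0.47 with the epithelium markers and -0.04 with the smooth muscle markers. For Npc1l1 these were 0.82 and -0.76. Over all 12 and all 6 markers, saturated ones included, the means ran from 15.02 to 16.12 and from 14.71 to 17.96. With all 12 epithelium markers, r of the mean of the 6 genes was 0.53. Of 5 measured markers of the intestinal crypt, 2 were above the control level on all 6 arrays and 2 on none. Their mean was 8.32, 8.69 and 8.225 in L-Exo and 8.58, 8.25 and 8.03 in H-Exo, highest on L-Exo 2 and lowest on H-Exo 3. The crypt mean had an r of 0.54 with the mean of the 6 genes and -0.39 with Npc1l1.

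H-Exo 3 had the lowest centred mean of the 6 genes on each scale, while the position of L-Exo 1 changed with the scale. Relative to these 5 epithelium markers, subtracted on the log2 scale, the centred mean of the 6 genes on L-Exo 1 moved from -0.51 to 0.85, and L-Exo 1 became the highest array for 5 of the 7 genes. On this scale H-Exo 3 lay at -1.03 and was the lowest array for 5 of the 7, and L-Exo 3 lay at -0.57. With quantile normalization L-Exo 1 and H-Exo 3 lay at -0.44 and -0.88, and with array medians subtracted at -0.53 and -0.79. Under subtraction, each array's shift was set by its own epithelium marker mean, which was 14.01 on L-Exo 1 and 15.59 on H-Exo 3. Array medians of 5.52 to 5.56 left little for subtraction of medians to move. The part of epithelial content in the order was not tested.

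**Figure D4:**
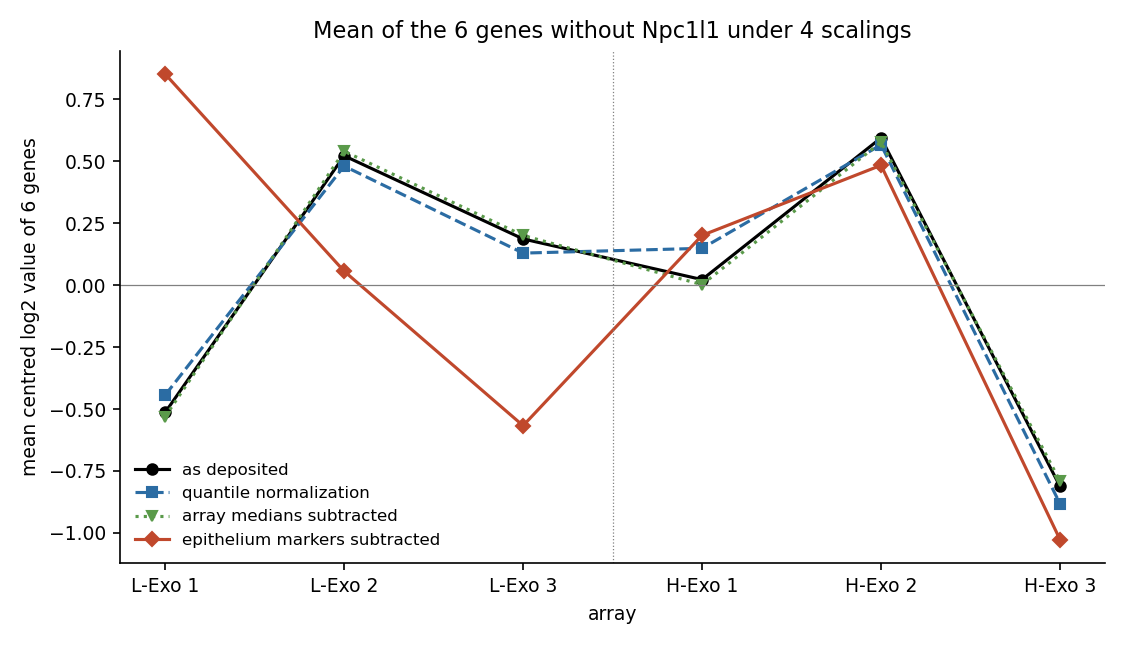
Centred mean log2 of the 5 enzymes and Insig1 on each array under 4 scalings. H-Exo 3 is lowest under each, from -1.03 to -0.79, whereas L-Exo 1 runs from -0.53 to 0.85.

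Other enzymes of sterol synthesis were compared from a list of 23, of which 19 were measured, the 5 enzymes above included. Of the 19, 0 passed the test, 15 had a lower and 4 a higher mean in H-Exo, and the median difference was -0.14, from -0.75 for Cyp51 to 0.56 for Pmvk. At an unadjusted p under 0.05 there were 0, against 4.06% of all probe sets. Of all probe sets, 0.0% passed the test and 51.1% had a lower mean in H-Exo. Of the 19, 12 were above the control level on all 6 arrays. L-Exo 1 was the lowest L-Exo array for 16 of the 19, while the lowest H-Exo array was H-Exo 3 for 11 and H-Exo 1 for 8. Over all 6 arrays, L-Exo 1 was lowest for 11 and H-Exo 3 for 5, with Hmgcs1, Sqle, Cyp51 and Fdps among these 5.

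Fdft1, the synthase that makes squalene, was at 11.56, 13.46 and 13.28 in L-Exo and 12.91, 13.15 and 11.77 in H-Exo. Its lowest arrays were L-Exo 1 and H-Exo 3 and its highest L-Exo 2, and its difference was -0.16 (standard error 0.55). Lss, the cyclase that forms lanosterol, differed by -0.06 (standard error 0.46), with L-Exo 1 and H-Exo 3 again lowest. Msmo1, which removes methyl groups after lanosterol, was at 11.16, 10.99 and 10.23 in L-Exo and 10.36, 10.998 and 9.16 in H-Exo. It was highest on L-Exo 1 and lowest on H-Exo 3, with a difference of -0.62 (standard error 0.48) that ran from -1.03 without H-Exo 2 to -0.11 without H-Exo 3. Dhcr7, the reductase of the last step, was above the control level on 3 arrays and differed by -0.71 (standard error 0.47). Pmvk, a kinase of the mevalonate pathway, differed by 0.56 (standard error 0.62), Mvk, which phosphorylates mevalonate, by -0.47 (standard error 0.43) with its signal above the control level on 0 arrays, and Ebp, a sterol isomerase, by 0.35 (standard error 0.64).

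Of the 8 other sterol enzymes above the control level on all arrays and not saturated, 4 had an r above 0.8 with the mean of the 6 genes, and the median was 0.70. These were Fdft1 at 0.92, Nsdhl at 0.90, Hsd17b7 at 0.88 and Lss at 0.80. Lbr, a sterol reductase that is also a protein of the nuclear envelope, had 0.06. Over 3636 other genes the median r was 0.04 and 2.12% were above 0.8. The 8 genes most like the mean of the 6, a ranking added after values had been seen, were Rab7, Traf7, Cdc42, Edf1, Wdr1, Hdac1, Cand1 and Cope, at 0.96 to 0.99, and 0 of them are sterol enzymes. For the mean of all 7 genes, the highest r over the 6 arrays belonged to Hdac1 at 0.99, Nmt1 at 0.99, Hyls1 at 0.99, Nsdhl at 0.98, Ppp2r1a at 0.98, Eif6 at 0.98, Fdft1 at 0.97 and Cdc42 at 0.97. Of these 8, Nsdhl and Fdft1 are enzymes of sterol synthesis. The lowest r belonged to Sp3 and Prpf39 at -0.99 and to Clock and Tbl1x at -0.97.

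The machinery that senses sterols was represented by 12 measured genes of a list of 17, Insig1 included. Of the 12, 0 passed the test, against 0.0% of all probe sets, and the median difference was 0.18. The mean in H-Exo was higher for 7 and lower for 5, and it was lower for 51.1% of all probe sets. Srebf2 was at 12.74, 14.79 and 14.61 in L-Exo and 13.91, 14.56 and 13.61 in H-Exo. It too was lowest on L-Exo 1 and next lowest on H-Exo 3, with a difference of -0.02 (standard error 0.54), and its r with the mean of the 6 genes was 0.83. Over the 5 genes of this list above the control level on all arrays and not saturated, Srebf2 included, the median of that r was -0.57. It was -0.65 for Mbtps1, a protease that activates SREBP, and -0.58 for Faf2, which acts in degradation at the endoplasmic reticulum. For Erlin1 it was -0.57 and for Erlin2 0.28, and 2 of the 5 were positive. Scap, the escort of SREBP, was above the control level on 2 arrays and differed by 0.17 (standard error 0.30). Insig2, the second INSIG gene, was above it on 3 and differed by -0.47 (standard error 0.30). Erlin1 and Erlin2, which act in sterol-dependent degradation at the endoplasmic reticulum, differed by -0.59 (standard error 0.33) and 0.35 (standard error 0.46), and Rnf145, a ubiquitin ligase of the same membrane, by 0.35 (standard error 0.48).

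Uptake, transport, esterification and efflux were represented by 20 measured genes of a list of 24, Npc1l1 included. Of the 20, 0 passed the test, against 0.0% of all probe sets, and the median difference was 0.05. The mean in H-Exo was higher for 12 and lower for 8, and it was lower for 51.1% of all probe sets. Signals of 10 were above the control level on all 6 arrays and those of 9 on none.

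Abcg5, the partner of ABCG8 in returning sterols to the lumen, was at 13.77, 15.00 and 16.16 in L-Exo and 12.06, 13.91 and 15.12 in H-Exo. L-Exo 1 and H-Exo 1 were the lowest arrays of their groups, and L-Exo 3 and H-Exo 3 the highest. The difference was -1.28 (standard error 0.79, limma unadjusted p = 0.137), and it ran from -1.99 without H-Exo 3 to -0.46 without H-Exo 1. With the replicate number as a block, the standard error was 0.31 (limma unadjusted p = 0.0033, adjusted p = 0.819). Whether the numbers pair the samples is not known. Abcg8 was at 11.31, 12.84 and 14.76 in L-Exo and 11.55, 11.88 and 13.20 in H-Exo and was likewise highest on L-Exo 3 and H-Exo 3. The groups differed by -0.76 (standard error 0.78), and by 0.13 without L-Exo 3. Within each group, Npc1l1 and both transporters were highest on L-Exo 3 and H-Exo 3, where the smooth muscle markers were lowest, and the part of tissue composition in this was not tested.

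Lrp1, a receptor that clears lipoprotein remnants, was at 10.51, 11.95 and 12.47 in L-Exo and 12.20, 12.14 and 12.26 in H-Exo, lowest on L-Exo 1. It differed by 0.55 (standard error 0.47), and its r with Npc1l1 was 0.91. That was the highest among the genes of these lists above the control level on all arrays and not saturated. With Npc1l1, Erlin2 had an r of 0.85, Lima1 of 0.74, Abcg8 of 0.68, Abcg5 of 0.41 and Msmo1 of -0.83. Over all genes compared, the highest r with Npc1l1 belonged to Cpt1a, Tmem30b and Sec24c at 0.99 and Ppp1r7 at 0.98, a ranking added after values had been seen. Stard4, a sterol carrier between membranes, differed by -0.47 (standard error 0.34), and Mylip, a ubiquitin ligase induced by sterols, by 0.28 (standard error 0.56). Scarb1, the receptor for high-density lipoprotein, Abca1, which exports cholesterol, and Npc1, which moves it out of lysosomes, differed by 0.49, 0.21 and 0.33 with signals above the control level on 0 arrays. Apob, the structural protein of chylomicrons, had a measured difference of 0.87 but was saturated on 4 arrays, all 3 H-Exo arrays among them.

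**Figure D5:**
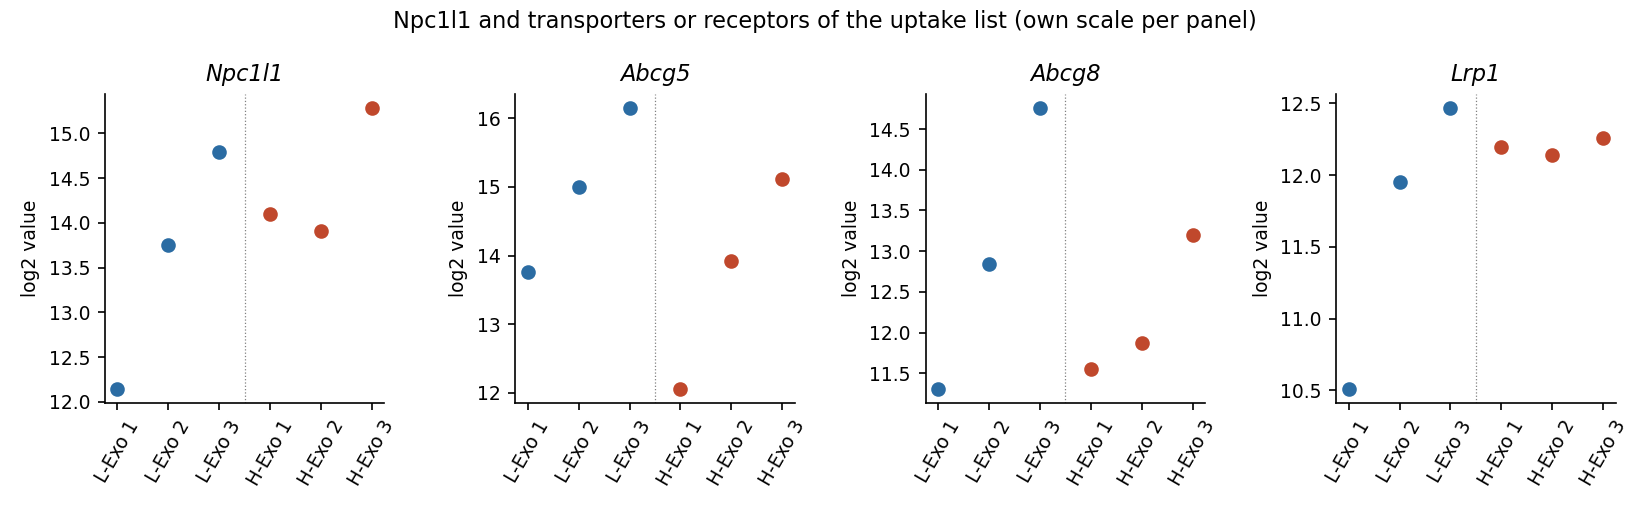
Log2 values of Npc1l1, Abcg5 and Abcg8 on each of the 6 arrays. L-Exo 3 and H-Exo 3 are the highest arrays of their groups for all 3 genes, and the groups overlap for each.

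Enzymes that lead from isoprenoids to other products, such as ubiquinone, dolichol and prenylated proteins, were represented by 11 measured genes of a list of 13. Of the 11, 0 passed the test, against 0.0% of all probe sets, and the median difference was -0.07. The mean in H-Exo was higher for 4 and lower for 7, and it was lower for 51.1% of all probe sets. Pdss2, a subunit of the synthase of the ubiquinone tail, differed by 0.80 (standard error 0.33, limma unadjusted p = 0.0365, adjusted p = 0.988). It was below the control level on all 6 arrays, as was Icmt, the methyltransferase of prenylated proteins, which was singled out after its values were seen and differed by -0.36. These were the 2 of 11 genes whose groups did not overlap, against 9.61% of all probe sets, and Pdss2 was the 1 of 11 at an unadjusted p under 0.05, against 4.06%. Rabggta, a subunit of the enzyme that prenylates RAB proteins, differed by -0.61 (standard error 0.39), below the control level on all 6 arrays. Nus1, a subunit of the enzyme of dolichol synthesis, differed by -0.43 (standard error 0.34).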

How the data were processed

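RNA from 6 mouse samples labelled liver was hybridized to Affymetrix arrays. The labels give 90 ng of RNA. Per the labels, the authors used Transcriptome Analysis Console 4.0 with RMA, and the deposited table holds log2 values that are background-corrected, normalized between arrays and summarized per probe set, a process that compresses differences between dim signals. A genome build was not stated in the sources used here. Of 28846 rows, 5222 negative and 1418 other control probes were left out and 22206 probe sets were tested with limma 3.58.1 (R 4.3.3) as H-Exo minus L-Exo, without further normalization, with Benjamini-Hochberg adjustment and a threshold of 0.05. Symbols were given for 19572 probe sets and 2634 are unnamed here. For a gene, the probe set with the highest mean was used. A value within 0.5 of the highest value of its array was called saturated. Single genes also had a two-sided exact permutation test (scipy 1.17.1, Python 3.11.15). Correlations over the 6 arrays are given without p. Likeness was ranked over named genes above the control level on all arrays and not saturated. The genes and lists were chosen with earlier results of these data known. Named genes were the 7, further genes chosen for their roles, up to 3 of each list with the largest difference, and the 8 most and 4 least alike. Scripts were tested on simulated data. Alternatives were array weights, other scalings, moderation with trend, a filter of the dimmest 30%, the methods' t-test, a replicate block and left-out arrays. With 3 arrays per group, precision is limited by their number.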

Additional observations from a re-analysis of the deposited data

How the results depend on the processing

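None of the 7 genes was called at an adjusted p under 0.05 under any alternative run. The unadjusted limma p fell under 0.05 for Cyp51 with array weights (0.0209), with the replicate block (0.0351), without L-Exo 1 (0.0474) and without H-Exo 2 (0.0281). It did so for Idi1 without H-Exo 2 (0.0208) and for Npc1l1 without L-Exo 3 (0.0328). The lowest limma adjusted p of these was 0.437, for Cyp51 with array weights. Over all probe sets, the number called was 10 with array weights and 921 with the methods' t-test before adjustment, which left 0 after it. It was 1, Dbp, without both replicate 1 arrays, and 0 to 1 when 1 array was left out (Dbp without L-Exo replicate 1, Pla2g4c without H-Exo replicate 3). With the replicate block it was 0, with 1154 at an unadjusted p under 0.05. Deviations of same-numbered arrays correlated at 0.219, 0.0429 and 0.182, and those of differently numbered arrays at -0.216 to 0.0849. L-Exo 2 and H-Exo 2 each correlated better with an array of number 3. Deviations from means of 3 arrays cannot decide whether the numbers pair the samples, and the main test used no block.

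With 1 array left out, the median difference of the 7 genes ran from -0.38 to 0.35. List medians ran from -0.50 to 0.13 (sterol synthesis), -0.13 to 0.28 (sterol sensing), -0.17 to 0.32 (uptake and efflux) and -0.26 to -0.0234 (other isoprenoid products, -0.26 with array weights). The median of the 7 genes and the medians of the first 3 lists thus changed sign, and without both replicate 1 arrays the other isoprenoid products were at 0.0052 and the uptake and efflux genes at -0.0085. The difference changed sign when 1 array was left out for Hmgcs1 (-0.54 to 0.35), Sqle (-0.38 to 0.25), Fdps (-0.37 to 0.45), Abcg8 (-1.59 to 0.13), Fdft1 (-0.76 to 0.26), Lss (-0.53 to 0.32), Srebf2 (-0.67 to 0.35), Mylip (-0.14 to 0.86), Abca1 (-0.16 to 0.61), Scap (-0.0035 to 0.27), Pmvk (-0.26 to 0.98), Lrp1 (-0.0134 to 0.97), Ebp (-0.50 to 0.84), Erlin2 (-0.12 to 0.66), Rnf145 (-0.22 to 0.72) and Npc1 (-0.17 to 0.87). Without a change of sign, it ran from -1.28 to -0.43 for Dhcr7, -0.92 to -0.21 for Mvk, -0.75 to -0.29 for Stard4, -1.01 to -0.35 for Rabggta, -0.68 to -0.20 for Nus1, 0.22 to 0.75 for Scarb1 and 0.26 to 1.28 for Apob. Without both replicate 1 arrays it was -0.0216 for Insig1, -0.45 for Pmvk, -0.0127 for Lrp1, -0.36 for Ebp, -0.0504 for Rnf145 and -0.17 for Npc1. With array weights it was -0.15 for Pmvk, -0.11 for Ebp and -0.10 for Rnf145, and with quantile normalization it was 0.0417 for Srebf2.

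The median pairwise correlation of the 7 genes, 0.62, was 0.71 by Spearman's rho, 0.74 for deviations from group means, 0.79 without both replicate 1 arrays, 0.51 without Hmgcs1 or without Sqle and 0.73 without Npc1l1. It was 0.53 to 0.76 with 1 array left out and 0.26 without L-Exo 1 and H-Exo 3. The median correlation of the other sterol enzymes with the mean of the 7, 0.77, was 0.88 without both replicate 1 arrays, 0.73 without L-Exo 1 and H-Exo 3, 0.72 without Idi1, 0.70 without Npc1l1, 0.27 with Npc1l1 alone and 0.75 to 0.86 with 1 array left out. Subtraction of epithelium markers, the 2-array omission of L-Exo 1 and H-Exo 3 and the settings without or with only Npc1l1 in the likeness were added after seeing the data. The causes were not tested.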

Other observations

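The mean log2 of 4 B cell markers was 5.15, 5.05 and 4.94 in L-Exo and 6.81, 7.98 and 5.83 in H-Exo, and all 4 had a higher mean in H-Exo, with differences from 0.26 to 2.65 and a median of 2.20. None of the 4 was above the control level on all 6 arrays and 2 were above it on none, and the lowest limma adjusted p among them was 0.941. H-Exo 2, on which 5 of the cholesterol genes were highest, was also the highest array for all 4. The B cell mean had an r of 0.31 with the mean of the 5 enzymes and Insig1. On L-Exo 2, the next highest array for those genes, the B cell mean was 5.05. The part of B cell content in the order of those genes was not tested. All 5 T cell markers also had a higher mean in H-Exo, with signals below the control level on all 6 arrays. Over all probe sets, 51.1% had a lower mean in H-Exo. Of the 12 hepatocyte markers, all 12 had a lower mean in H-Exo, with a median difference of -0.74 and a lowest adjusted p of 0.761, and 11 were below the control level on all 6 arrays.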
